A study of Mus musculus with 899 samples.

Results

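The miRNA mmu-miR-192-5p, mmu-miR-194-5p, mmu-miR-215-5p and mmu-miR-802-5p (written without mmu from here on) were followed in the plasma of irradiated and sham-treated mice. They were picked by name as miRNA of liver, gut and kidney epithelium, and make up 4 of the 1915 mature mouse miRNA in the count table. All 4 were among the 483 miRNA with enough reads to be tested.

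A mature miRNA guides an Argonaute protein to messenger RNAs that pair with its seed, the short stretch near its 5′ end, and lowers their translation or stability. miR-192, miR-194 and miR-215 are made from paired genes that are active in the epithelium of gut, liver and kidney and can be switched on by the tumor suppressor p53. miR-802 is a separate gene of liver and gut epithelium that has been studied for its part in glucose metabolism. Dying or injured cells can release miRNA into the blood, where it is protected by proteins and vesicles, so miR-122 of hepatocytes and its kin are used as plasma markers of tissue injury.

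The samples were plasma of C3Hf/Sed/Kam (C3H) and C57Bl/6 mice of both sexes, gnotobiotic animals that received a single X-ray dose to the thorax with the rest of the body shielded by lead, or sham treatment. Blood was drawn before treatment (PT), at day 2 or day 5 (D2, D5) and at monthly intervals (M1, M2 and so on), up to M4 in C3H and M6 in C57Bl/6 mice, as a rule from the eye and at the end of life from the heart. The 899 samples came from 196 mice, of which C3H gave 64 to irradiation and 32 to the sham arm, and C57Bl/6 gave 68 and 32. Both strains were run as 2 cohorts. Before treatment each strain had 64 irradiated and 32 sham samples, and at D2 and at D5 it had 32 and 16. At M1 there were 58 irradiated and 32 sham samples of C3H and 68 and 32 of C57Bl/6. Samples beyond M1 came from mice of cohort 1 alone, with 16 sham samples at each time. The irradiated numbers went down to 17 at M4 in C3H and to 8 at M6 in C57Bl/6 mice. Of the irradiated C57Bl/6 mice, 4 had no sample before treatment and gave 19 samples from M1 on. Replicates are separate mice, and a mouse was sampled at several times.

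The mature sequences are shown first because their likeness limits how reads can be told apart. They are the RefSeq entries of the mouse build GRCm38.p6, written 5′ to 3′ with the seed (bases 2 to 8) in capitals.
miR-192-5p: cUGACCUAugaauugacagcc
miR-215-5p: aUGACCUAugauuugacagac
miR-194-5p: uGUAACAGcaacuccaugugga
miR-802-5p: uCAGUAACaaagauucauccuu

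miR-192-5p and miR-215-5p had the same seed, UGACCUA, and were the only 2 of 1679 mature miRNA in the reference that carry it. Over their 21 bases they differed at 3 positions, counted from the 5′ end of miR-192-5p: C1A, A12U and C20A. Reads with sequencing errors or trimmed ends at these positions could be assigned to either miRNA, so a level of one may hold some reads of the other. The seeds of miR-194-5p (GUAACAG) and miR-802-5p (CAGUAAC) were found in no other mature miRNA of the reference.

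The genes lie in 3 places of GRCm38.p6, all on the plus strand. Mir194-1 (chr1:185313319-185313385) and Mir215 (chr1:185313581-185313692) are separated by 195 bases inside an intron of Iars2, a gene on the other strand that encodes mitochondrial isoleucyl-tRNA synthetase. The antisense RNA 2010103J01Rik runs over both, with Mir194-1 in an intron and Mir215 in an exon. Mir194-2 (chr19:6264643-6264728) and Mir192 (chr19:6264844-6264932) are separated by 115 bases, and Mir802 stands alone (chr16:93369720-93369816). No annotated host gene overlaps these last 3. Both Mir194 copies give the same mature miR-194-5p, so its reads cannot be assigned to either pair.

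The deposited values were reads per mature miRNA. A sample held 206490 to 11814515 reads in total (median 1475030). miR-192-5p was abundant, with a median of 7502 reads (391 to 104417) and 0.4895% of a sample's reads, and ranked 29 among all miRNA by mean level. miR-215-5p followed with a median of 1524 reads at rank 60. The remaining pair was scarce: the median was 41 reads for miR-194-5p (rank 176) and 20 reads for miR-802-5p (rank 211). miR-194-5p had no read in 13 samples and miR-802-5p in 28, which allows up to 3 reads there, so single values of this pair are coarse. Levels below are given as log2 CPM, reads scaled to a common library size on a log2 scale (TMM in edgeR, prior count 2), on which a sample without a read takes the value 0.23.

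miRNA of red blood cells took a large share of the reads, with a mean log2 of their summed CPM of 18.35 to 19.37 over the 32 groups. After removing group means, the correlation of the 4 miRNA with that sum was -0.15 to 0.09 and with log2 total reads -0.18 to 0.06 over 899 samples. The red cell list had 2 of 6 members higher in irradiated C3H mice at D5, 1 of 6 in C57Bl/6 mice at D5 and 0 of 6 at the other times. In plasma, more releasing cells and more miRNA released per cell cannot be told apart.

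**Figure D1:**
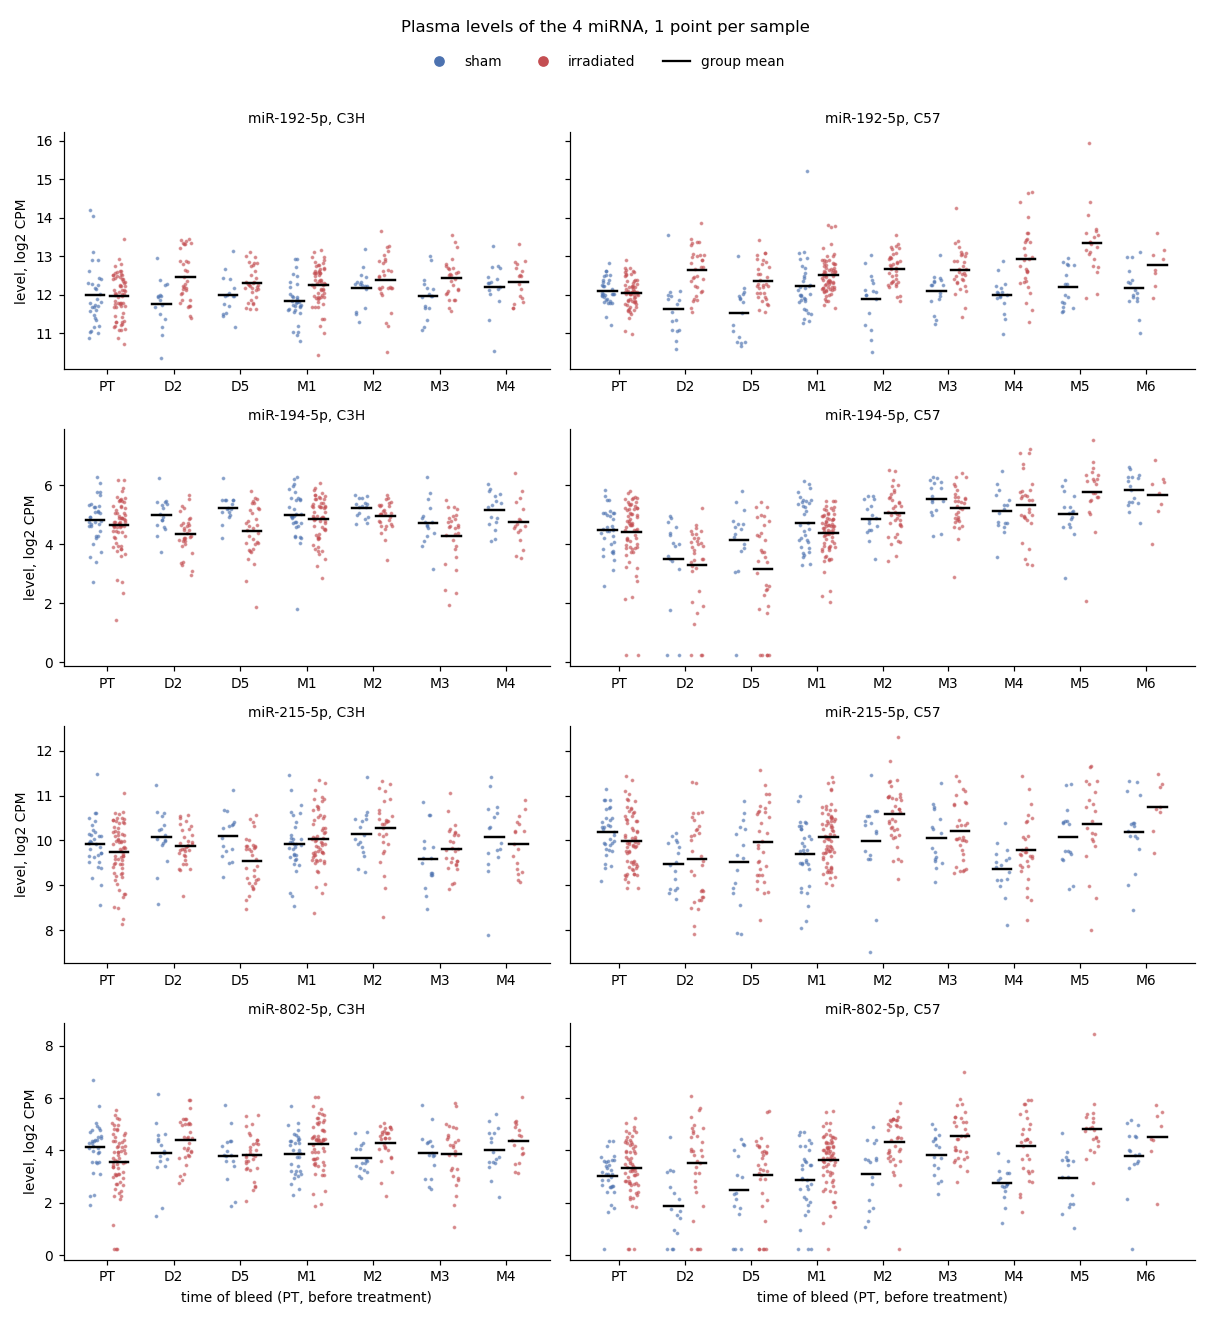
Levels of miR-192-5p, miR-194-5p, miR-215-5p and miR-802-5p (log2 CPM) in every sample by strain and time of bleed, sham in blue and irradiated in red, with a black line at each group mean. The groups overlap throughout, miR-192-5p and miR-802-5p of irradiated C57Bl/6 mice sit high at M4 and M5, and 1 irradiated C57Bl/6 sample at M5 stands above the rest at 15.94 (miR-192-5p) and 8.46 (miR-802-5p).

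Before treatment, the arm that was to be irradiated was compared with the sham arm. None of the 4 miRNA passed the test in either strain by edgeR's quasi-likelihood test (adjusted p under 0.05 over all miRNA tested), and 0% of the 483 miRNA passed it in C3H plasma and 0% in that of C57Bl/6. The unadjusted p was under 0.05 for 1 of the 8 tests, that of miR-802-5p in C3H mice. Its mean was 3.57 ± 1.17 (SD, n = 64) log2 CPM in mice to be irradiated and 4.13 ± 0.95 (n = 32) in sham mice (log2 fold change -0.52 ± 0.23 SE, adjusted p = 0.695, edgeR). This gap before treatment enters every later change of miR-802-5p that is counted from a C3H mouse's own first sample.

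miR-192-5p, the most abundant of the 4, was higher in irradiated mice at 1 of 6 times in C3H and 5 of 8 times in C57Bl/6 mice, and its estimate was above 0 at all 14 times. In C3H mice at D2 it ranged from 11.39 through a median of 12.32 to 13.45 log2 CPM after irradiation and from 10.35 through 11.91 to 12.97 after sham treatment. The ranges overlapped, with 24 of 32 irradiated samples above the sham median and 2 of 16 sham samples above the irradiated median. It was raised by 0.72 ± 0.18 on the log2 scale (SE, 1.65-fold, adjusted p = 0.00547, edgeR). Of all miRNA tested in C3H mice, 4.97% were called at D2, 3.11% at D5, 3.31% at M1, 0.621% at M2, 2.07% at M3 and 0.414% at M4, beside 1, 0, 0, 0, 0 and 0 of the 4 miRNA. The estimates for miR-192-5p at the later C3H times were 0.10 to 0.46, and that at M1 had an adjusted p of 0.0621 (edgeR). The M1 difference passed with the mouse as a correlated replicate block (0.41, adjusted p = 0.0354, limma-voom) but not with it as a fixed block (adjusted p = 0.17, limma-voom). The fixed block counts the effect from the PT samples, so a gap between the arms at PT enters it.

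At D2 in C57Bl/6 mice, miR-192-5p ranged from 11.57 through a median of 12.71 to 13.88 log2 CPM after irradiation and from 10.60 through 11.67 to 13.56 after sham treatment. Nearly every irradiated sample was high: 30 of 32 lay above the sham median, while 1 of 16 sham samples lay above the irradiated median. This was a log2 fold change of 0.92 ± 0.19 (SE, 1.90-fold, adjusted p = 5.78e-05, edgeR), and it was 1.21 in cohort 1 and 0.81 in cohort 2. At D5 the irradiated samples ranged from 11.57 through 12.27 (median) to 13.44, and the sham samples from 10.66 through 11.67 to 13, again with 30 of 32 irradiated samples above the sham median, and the log2 fold change was 0.75 ± 0.18 (SE, adjusted p = 0.000983, edgeR). Of all miRNA tested in C57Bl/6 mice, 6.63% were called at D2 and 14.1% at D5, beside 2 and 1 of the 4.

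At M1 the C57Bl/6 groups were close for miR-192-5p, with a log2 fold change of 0.08 ± 0.13 (SE, adjusted p = 0.914, edgeR). This value rests in part on 1 sham sample at 15.20 log2 CPM, where the other 31 lay between 11.27 and 13.11. Without it, an alternative chosen after the data were seen, the log2 fold change was 0.36 (adjusted p = 0.0873, edgeR). The same sample held the hepatocyte miRNA miR-122-5p at 16.01 log2 CPM against 9.56 to 13.65 in the other 31. By cohort the M1 values were 0.40 in cohort 1 and -0.21 in cohort 2.

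From M2 to M5, the C57Bl/6 estimates for miR-192-5p lay between 0.60 and 1.35. The log2 fold change was 0.69 ± 0.18 at M2 (SE, adjusted p = 0.00683, edgeR), and 0.60 ± 0.18 at M3 missed the threshold (adjusted p = 0.0591, edgeR). At M4 the irradiated samples ranged from 11.30 through a median of 12.90 to 14.66 log2 CPM and the sham samples from 10.98 through 12.02 to 12.88. No sham sample reached the irradiated median, and 15 of 29 irradiated samples lay above the highest sham sample. This was a log2 fold change of 1.13 ± 0.19 (SE, 2.19-fold, adjusted p = 6.55e-07, edgeR).

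At M5 the irradiated C57Bl/6 samples ranged from 11.92 through a median of 13.33 to 15.94 log2 CPM for miR-192-5p and the sham samples from 11.54 through 12.14 to 12.97. Again 0 of 16 sham samples reached the irradiated median, and 15 of 21 irradiated samples lay above every sham sample. The log2 fold change was 1.35 ± 0.20 (SE, 2.54-fold, adjusted p = 8.89e-09, edgeR). Without the irradiated sample at 15.94, an alternative chosen after the data were seen, it was 1.03 (adjusted p = 4.68e-05, edgeR). Without the 4 mice that had no first sample it was 1.11 (adjusted p = 1.15e-05, edgeR). At M6, with 8 irradiated samples, the estimate was 0.57 (95% interval 0.09 to 1.06). Of all miRNA tested, 3.73% were called at M1, 3.31% at M2, 1.66% at M3, 4.76% at M4, 3.52% at M5 and 0.414% at M6, beside 0, 2, 0, 2, 3 and 0 of the 4.

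miR-802-5p, scarce in plasma, had the largest estimates of the 4 in C57Bl/6 mice at D2 and from M1 to M6, and passed the test there at D2, M2, M4 and M5. At D2 the irradiated samples ranged from 0.23 through a median of 3.90 to 6.10 log2 CPM and the sham samples from 0.23 through 1.72 to 4.50. Sham samples were low, with a median of 3.5 reads and no read in 3 of 16, and 27 of 32 irradiated samples lay above their median. Between the arms the log2 fold change was 2.04 ± 0.38 (SE, 4.11-fold, adjusted p = 9.11e-06, edgeR), with 2.12 in cohort 1 and 2.03 in cohort 2. At D5 the pooled estimate of 0.75 missed the threshold (adjusted p = 0.172, edgeR) and the cohorts pointed in opposite directions, at -0.44 in cohort 1 (adjusted p = 0.702) and 1.6 in cohort 2 (adjusted p = 0.0103, edgeR). The arms of C57Bl/6 cohort 2 had differed in the same direction before treatment, by 1.00 (adjusted p = 0.663, edgeR).

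At M4 miR-802-5p ranged from 1.66 through a median of 4.32 to 5.93 log2 CPM in irradiated and from 1.21 through 2.72 to 3.91 in sham C57Bl/6 mice. Irradiated samples were high, as 17 of 29 lay above every sham sample and no sham sample reached the irradiated median. Between the arms the log2 fold change was 1.88 ± 0.36 (SE, adjusted p = 3.27e-05, edgeR). At M5 it was 2.35 ± 0.38 (SE, 5.10-fold, adjusted p = 1.3e-07, edgeR), with irradiated samples from 2.74 to 8.46 (median 4.78) and sham samples from 1.03 to 4.66 (median 3.21). Without the irradiated sample at 8.46, the one that was also highest in miR-192-5p, it was 1.69 (adjusted p = 0.000406, edgeR). At M2 the log2 fold change of 1.17 ± 0.34 passed the test (SE, adjusted p = 0.0208, edgeR), but not with the mouse as a fixed replicate block (adjusted p = 0.151, limma-voom).

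In C3H mice miR-802-5p did not pass the test at any time, with estimates from -0.05 at D5 to 0.62 at M2. The M2 estimate had a 95% interval of -0.05 to 1.28, so a difference of the size seen in C57Bl/6 mice at that time lies inside it. At M2 the irradiated C3H samples had a median of 4.48 log2 CPM against 3.56 in sham samples, and 25 of 28 irradiated samples lay above the sham median, with overlapping ranges.

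miR-215-5p, which shares its seed with miR-192-5p, did not pass edgeR's test in either strain at any time. In C57Bl/6 mice its estimates were above 0 at all 8 times, from 0.15 at M3 to 0.51 at M2 and M4. At M2 it ranged from 9.14 through a median of 10.64 to 12.31 log2 CPM in irradiated and from 7.51 through 10.28 to 11.46 in sham mice, with 25 of 36 irradiated samples above the sham median. The log2 fold change there was 0.51 ± 0.20 (SE, adjusted p = 0.142, edgeR), and with the mouse as a fixed replicate block it was 0.74 (adjusted p = 0.0409, limma-voom). With that block, which counts from PT, the D5 value was 0.75 (adjusted p = 0.0261, limma-voom), against 0.42 between the arms (adjusted p = 0.148, edgeR). The arms had differed at PT by -0.13 for miR-215-5p (adjusted p = 0.973, edgeR), and the block subtracts this gap.

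In C3H mice the estimates for miR-215-5p were below 0 at D2, D5 and M4. At D5 its median was 9.63 log2 CPM in irradiated and 10.16 in sham mice, and 28 of 32 irradiated samples lay below the sham median. The log2 fold change of -0.54 ± 0.19 missed the threshold (SE, adjusted p = 0.108, edgeR). miR-192-5p of the same samples had an estimate of 0.28.

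With both sexes in the fit, miR-194-5p passed the test once, at M5 in C57Bl/6 mice. There it ranged from 2.07 through a median of 6.03 to 7.54 log2 CPM after irradiation and from 2.87 through 5.08 to 6.18 after sham treatment, and 18 of 21 irradiated samples lay above the sham median. The log2 fold change of 0.88 ± 0.27 (SE, adjusted p = 0.037, edgeR) depended on 1 sample: without the irradiated sample at 7.54 it was 0.74 (adjusted p = 0.127, edgeR). It was also lost with the mouse as a fixed replicate block (adjusted p = 0.32, limma-voom).

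At the other times the estimates for miR-194-5p were mostly below 0, in 6 of 6 in C3H and 5 of 7 in C57Bl/6 mice. At D2 in C3H mice its median was 4.33 log2 CPM in irradiated and 4.96 in sham samples, and 27 of 32 irradiated samples lay below the sham median, with a log2 fold change of -0.64 ± 0.24 (SE, adjusted p = 0.116, edgeR). At D5 the value was -0.65 in C3H and -0.60 in C57Bl/6 mice, and both missed the threshold (adjusted p = 0.147 and 0.109, edgeR). Within cohort 1 of C57Bl/6 mice the D5 value was -1.36 (adjusted p = 0.0195, edgeR), and within cohort 2 it was -0.51.

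**Figure D2:**
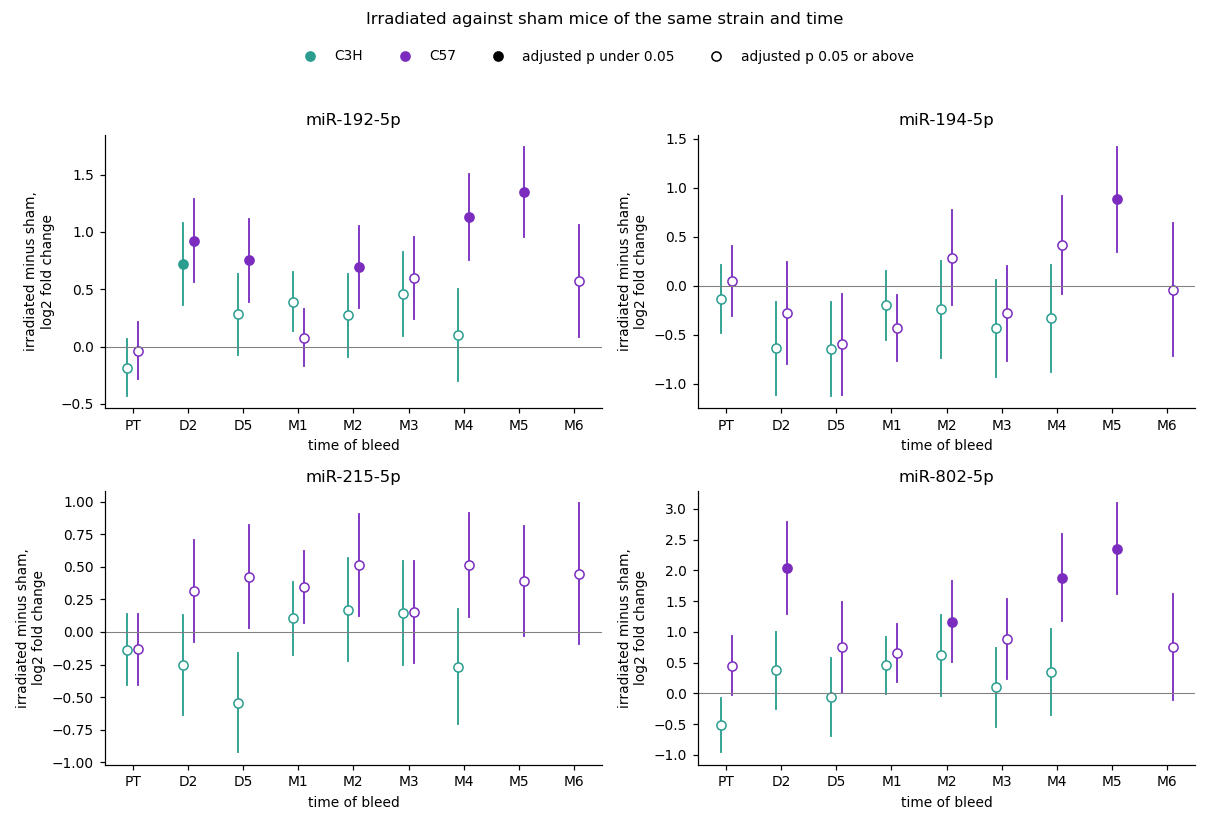
Log2 fold change of irradiated against sham mice (y axis) by time of bleed (x axis) for each miRNA, C3H in green and C57Bl/6 in purple, with 95% intervals. Filled points had an adjusted p under 0.05: 1 in C3H (miR-192-5p at D2) and 10 in C57Bl/6 mice, where M4 and M5 of miR-802-5p reached 1.88 and 2.35.

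Because the 4 miRNA are counted in the same library, their ratios do not depend on how libraries are scaled. The log2 ratio of reads (each plus 0.5) to miR-192-5p was compared between irradiated and sham samples by two-sided permutation tests. The same test was run on every other miRNA as background, and p-values were adjusted over these 482 miRNA within each strain and time, an adjustment chosen after the data were seen. It called 18 of 42 ratios of the members, against 24 when adjusted over the 42 alone as planned. A lower ratio was common among all miRNA, as 17.5% of tests in C3H and 40% in C57Bl/6 mice called one, and 0.346% and 0.415% called a higher one. A member's ratio is therefore set beside the median difference over all 482 miRNA at that time.

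The ratio of miR-194-5p to miR-192-5p was below 0 in difference at all 14 times, as was the median over all miRNA at each of them. This ratio was called lower at 4 of 6 times in C3H and 6 of 8 in C57Bl/6 mice. Of these calls, those at M2 (-0.58) and M4 (-0.75) in C57Bl/6 mice were smaller in size than the median (-0.75 and -0.98). The other calls were larger in size than the median. At D2 in C3H mice the ratio was -8.20 ± 1.01 (SD, n = 32) in irradiated and -6.83 ± 0.74 (n = 16) in sham samples. Almost every irradiated sample was low, 31 of 32 being under the sham median, and the difference was -1.37 (permutation test, adjusted p = 0.000689), where the median over all miRNA was -0.76. At D5 in C57Bl/6 mice the means were -9.24 ± 1.36 (SD, n = 32) and -7.46 ± 1.35 (n = 16), with 31 of 32 irradiated samples under the sham median. The difference was -1.78 (permutation test, adjusted p = 0.00117), with -2.11 in cohort 1 and -1.45 in cohort 2, where the median over all miRNA was -0.91. At D2 in C57Bl/6 mice the difference of -1.12 (permutation test, adjusted p = 0.0272) was close to the median of -1.01, and it was -0.33 in females and -1.91 in males. At M5 in C57Bl/6 mice the ratio of miR-194-5p was not called (-0.37, permutation test, adjusted p = 0.309), where the median was -1.19 and 67.6% of all miRNA were called lower.

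The ratio of miR-215-5p to miR-192-5p, the pair with a common seed, was farthest below the median over all miRNA at D5 in C3H mice. It was -2.76 ± 0.33 (SD, n = 32) in irradiated and -1.90 ± 0.16 (n = 16) in sham samples, and 32 of 32 irradiated samples lay under the sham median. The difference was -0.86 (permutation test, adjusted p = 0.00193) and the same to 2 decimals in each cohort, where the median over all miRNA was -0.29 and 11% were called lower. At D2 the difference was -0.89 in C3H mice, near the median of -0.76. In C57Bl/6 mice at D2 it was -0.88, smaller in size than the median of -1.01, with -1.29 in cohort 1 and -0.47 in cohort 2.

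Later, this ratio was called lower at M1 (-0.29) in C3H mice and at M3 (-0.42), M4 (-0.53) and M5 (-0.84) in C57Bl/6 mice by the permutation test. Each of these was smaller in size than the median over all miRNA, which was -0.45, -0.58, -0.98 and -1.19. The M1 value in C3H mice was -0.07 in cohort 1 and -0.52 in cohort 2. The M5 value was -0.59 without the irradiated C57Bl/6 sample highest in miR-192-5p, in which miR-215-5p was the lowest of its group at 8.0 log2 CPM. The remaining times were not called.

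The ratio of miR-802-5p to miR-192-5p was called once, at M5 in C57Bl/6 mice, where irradiated samples were higher by 0.94 (permutation test, adjusted p = 0.00147) and 19 of 21 lay above the sham median. At D5 the cohorts disagreed in both strains, with -1.05 in cohort 1 of each and, in cohort 2, 0.56 for C3H and 0.74 for C57Bl/6.

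**Figure D3:**
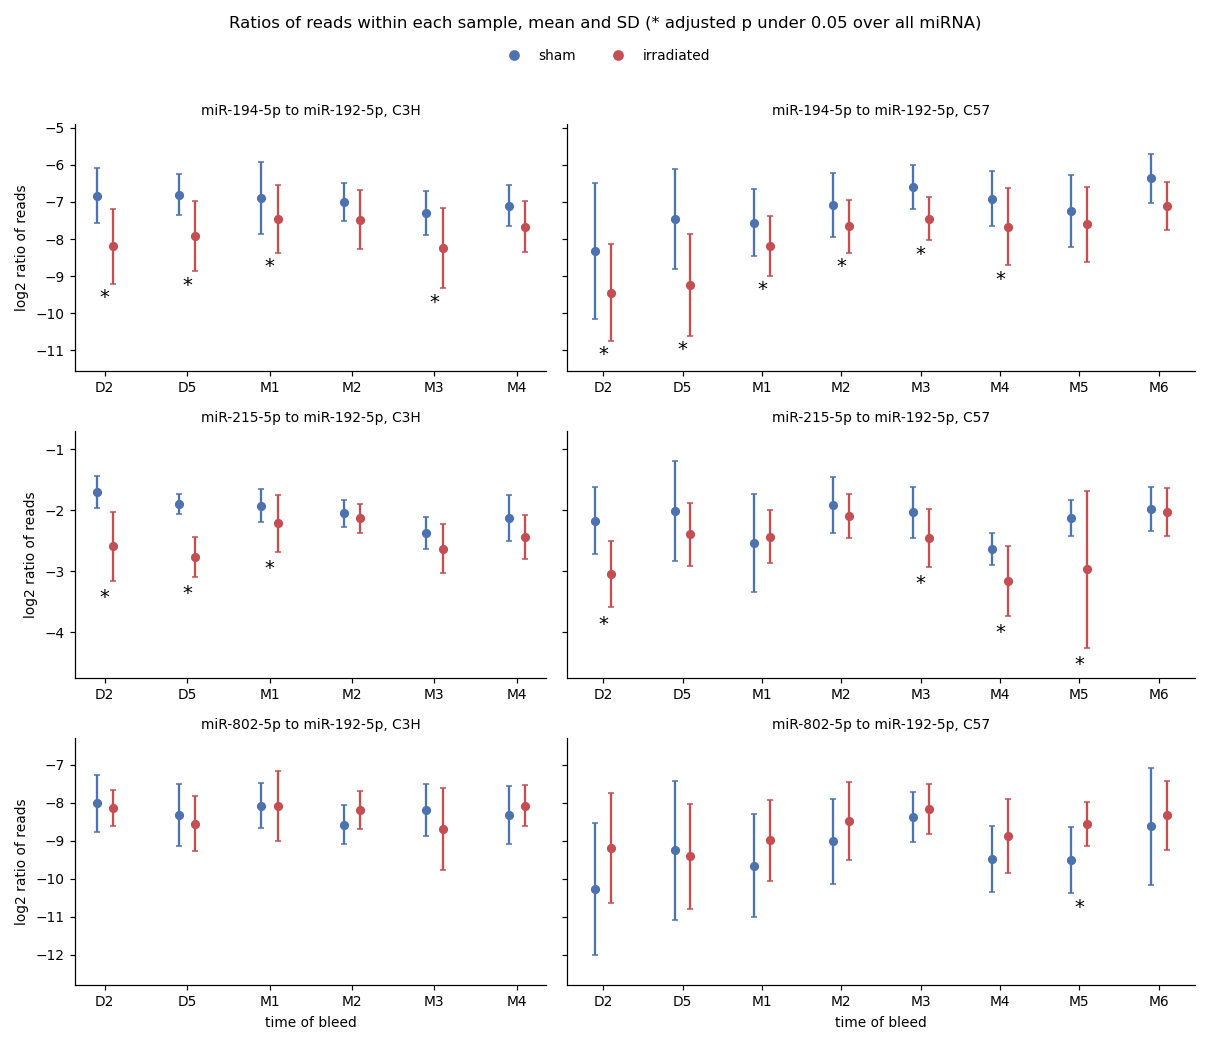
Log2 ratios of the reads of miR-194-5p, miR-215-5p and miR-802-5p to those of miR-192-5p within each sample (y axis) by strain and time of bleed (x axis), as mean and SD of sham (blue) and irradiated (red) mice, with an asterisk where the permutation test had an adjusted p under 0.05 over all miRNA. The mean ratio of miR-194-5p is lower in irradiated mice at all 14 times, and the median difference over all miRNA is below 0 at each of them too. The mean ratio of miR-215-5p is lower by 0.86 at D5 in C3H mice, where the difference is -0.86.

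Each mouse with a first sample also served as its own control. The change of log2 CPM from the PT sample was compared between irradiated and sham mice by two-sided permutation tests. Adjusted over all 483 miRNA within each strain and time, an adjustment chosen after the data were seen, 9 of 56 tests passed, 0 of 24 in C3H (0.587% of all miRNA tests) and 9 of 32 in C57Bl/6 mice (1.71%). The planned adjustment over the 56 alone called 23. The arms can differ here because irradiated mice rose or because sham mice fell, so both means are given.

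miR-192-5p of C57Bl/6 mice passed at D2, D5, M2, M3, M4 and M5, and for M2 to M5 irradiated mice were above their first sample and sham mice below it on average. At D2 it changed by 0.64 ± 0.80 (SD, n = 32) in irradiated and -0.36 ± 0.86 (n = 16) in sham mice (permutation test, adjusted p = 0.0193). By cohort the D2 means were 0.16 and -0.96 in cohort 1 and 1.12 and 0.25 in cohort 2. At D5 the means were 0.24 and -0.68, so most of that difference of 0.92 lay in the sham mice, 13 of 16 of which were below their own first sample. At M5, 18 of 18 irradiated mice with a first sample were above it, by 1.18 ± 0.56 on average (SD), against 7 of 16 sham mice (difference 1.29, permutation test, adjusted p = 0.00483). The arms of cohort 1, which alone reaches M2 to M6, had differed before treatment by -0.20 for miR-192-5p, -0.29 for miR-215-5p and -0.27 for miR-802-5p (adjusted p = 0.834, 0.788 and 0.907, edgeR), and these gaps enter the changes.

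In C3H mice miR-192-5p had differences of 0.74 at D2 (permutation test, adjusted p = 0.218) and 0.44 at M1 (permutation test, adjusted p = 0.303). Sham C3H mice of cohort 1 rose as well: at M3, 16 of 16 were above their own first sample, by 0.56 on average, against 26 of 27 irradiated mice, by 0.93.

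miR-215-5p passed this test once, at D5 in C57Bl/6 mice (permutation test, adjusted p = 0.0356), where irradiated mice were near their first sample (0.12) and sham mice below it (-0.58, 14 of 16 lower). The same held at M1 (0.03 and -0.49) and M4 (0.09 and -0.55), which missed the threshold (permutation tests, adjusted p = 0.0966 and 0.0989). miR-802-5p passed at M4 and M5 in C57Bl/6 mice. At M5 the means were 1.94 and -0.11, with 17 of 18 irradiated and 8 of 16 sham mice above their first sample (difference 2.05, permutation test, adjusted p = 0.0232), and at M4 they were 1.22 and -0.30 (permutation test, adjusted p = 0.0419). At D2, the time of its early call between the arms, irradiated C57Bl/6 mice changed by 0.0083 and sham mice by -1.11. The difference of 1.12 missed the threshold (permutation test, adjusted p = 0.205). The C57Bl/6 arms had differed before treatment by 0.45 for miR-802-5p (adjusted p = 0.973, edgeR), and by 1.00 in cohort 2 (adjusted p = 0.663, edgeR). That gap enters both changes, so they do not tell a rise in irradiated mice from a fall in sham mice. In C3H mice the closest to the threshold was M1 (0.95, permutation test, adjusted p = 0.0604), beside the gap between the C3H arms at PT given above. miR-194-5p was not called.

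Whether the strains differed in the irradiation effect was tested across the 6 shared times. The mouse was not a term in this fit, so samples of a mouse at several times were treated as independent. edgeR's F test called miR-802-5p (adjusted p = 0.00397), miR-215-5p (0.0109) and miR-192-5p (0.0149) but not miR-194-5p (0.691), so 3 of the 4 were called beside 4.35% of all miRNA. At single times, 2 differences passed: that of miR-215-5p at D5 was 0.97 ± 0.28 (SE, adjusted p = 0.0348, edgeR) higher in C57Bl/6 mice, beside 1.86% of all miRNA called, and that of miR-192-5p at M4 was 1.03 ± 0.27 (SE, adjusted p = 0.0152, edgeR), beside 1.24%. For miR-802-5p the largest difference, 1.67 at D2, missed the threshold (adjusted p = 0.0696, edgeR). These strain calls did not hold under every setting. With the mouse as a fixed replicate block in limma-voom, where effects are counted from PT, 0 of 4 were called. With the block as a correlation only miR-215-5p was called (adjusted p = 0.0408, limma-voom). Within cohort 1 alone and within males alone 0 of 4 were called by edgeR, and within females alone 3 of 4. The share of all miRNA called in these subset fits is not given here, so their counts have no background beside them. Without the C57Bl/6 sham M1 sample at 15.20, chosen after the data were seen, 3 of 4 were called, with an adjusted p of 0.0277 for miR-192-5p (edgeR).

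Before treatment, 2 of the 4 miRNA differed in level between the strains, about the share found among all miRNA. Means over both arms were 3.76 ± 1.13 (SD, n = 96) log2 CPM in C3H and 3.23 ± 1.02 (n = 96) in C57Bl/6 mice for miR-802-5p, a log2 fold change of -0.83 ± 0.17 for C57Bl/6 against C3H (SE, adjusted p = 5.21e-06, edgeR). miR-215-5p was higher in C57Bl/6 mice by 0.25 ± 0.10 (SE, adjusted p = 0.0245, edgeR). miR-194-5p had -0.27 (adjusted p = 0.0655) and miR-192-5p -0.04 (adjusted p = 0.717, edgeR). Thus 2 of 4 were called beside 50.7% of all miRNA.

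The near-zero strain difference of miR-192-5p went with opposite differences in the cohorts. In cohort 1 it was 11.51 ± 0.38 (SD, n = 48) log2 CPM in C3H, from 10.72 to 12.25, and 12.21 ± 0.31 (n = 48) in C57Bl/6 mice, from 11.40 to 12.82. In cohort 2 the order was turned, with 12.45 ± 0.50 (SD, n = 48), from 11.68 to 14.21, in C3H and 11.94 ± 0.37 (n = 48), from 10.99 to 12.89, in C57Bl/6 mice. In fits of each cohort alone, chosen after the data were seen, C57Bl/6 minus C3H was 0.84 (adjusted p = 2.72e-11, edgeR) in cohort 1 and -0.69 (adjusted p = 3.52e-07, edgeR) in cohort 2. The other 3 were higher in cohort 2 in both strains, for instance miR-215-5p at 9.75 and 10.37 in C57Bl/6 mice. For miR-802-5p, C57Bl/6 minus C3H was -0.50 in cohort 1, which missed the threshold (adjusted p = 0.0727, edgeR). It was -1.02 in cohort 2 (adjusted p = 7.13e-06, edgeR). The part of the cohort in these levels beyond these values was not tested.

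**Figure D4:**
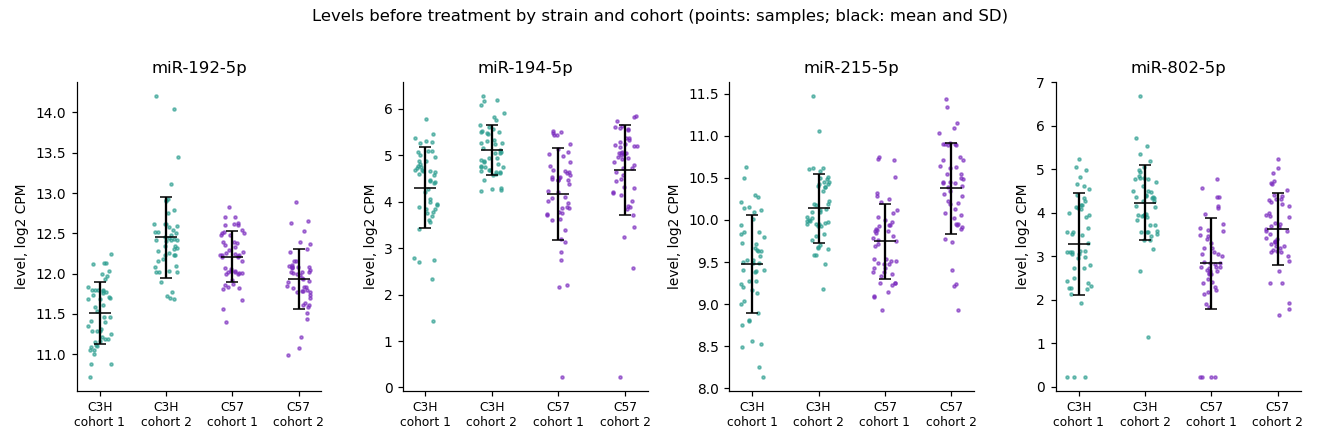
Levels (log2 CPM) before treatment by strain and cohort, 1 point per sample, with mean and SD in black (n = 48 each). miR-192-5p is lowest in C3H cohort 1 (mean 11.51) and highest in C3H cohort 2 (12.45), with C57Bl/6 mice between them at 12.21 and 11.94.

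The sham mice showed how far the 4 miRNA moved without irradiation. In C57Bl/6 sham mice 4 of 4 changed over time by edgeR's F test against PT (62.9% of all miRNA did). In C3H sham mice 0 of 4 did (46% of all miRNA did), where 4 had an adjusted p of 0.187 to 0.8 by that test. The mouse was not a term in the fits of the sham time course, so samples of 1 mouse at several times were treated as independent. miR-194-5p of C57Bl/6 sham mice rose to M6, from 4.47 ± 0.75 (SD, n = 32) to 5.83 ± 0.56 (n = 16) log2 CPM (log2 fold change 1.31, adjusted p = 1.16e-06, edgeR). At D2 the sham C57Bl/6 mice were below PT by 0.72 for miR-194-5p, 0.72 for miR-215-5p and 0.99 for miR-802-5p on the log2 scale, where the fits gave -0.72, -0.72 and -0.99 (adjusted p = 0.0354, 0.00393 and 0.041, edgeR).

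The later sham times hold cohort 1 only while PT holds both cohorts. In cohort 1 alone, chosen after the data were seen, 2 of 4 changed in C3H sham mice by edgeR's F test, namely miR-192-5p (adjusted p = 4.19e-05) and miR-215-5p (adjusted p = 0.00627), with miR-192-5p 1.01 above PT at M4. In C57Bl/6 sham mice of cohort 1 all 4 changed, and miR-192-5p stood at -1.17 against PT at D2 and -0.99 at D5 (adjusted p = 6.66e-05 and 0.000689, edgeR). Without the sham M1 sample at 15.20, miR-192-5p of C57Bl/6 sham mice of both cohorts just missed the threshold (adjusted p = 0.0541, edgeR) and 3 of 4 were called. The share of all miRNA called in these subset fits is not given here, so their counts have no background beside them. With all samples that share was 46% in C3H and 62.9% in C57Bl/6 sham mice.

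Females and males were compared before treatment and in their response. Before treatment miR-194-5p was higher in females, with 4.95 ± 0.79 against 4.45 ± 0.80 log2 CPM (SD, n = 48 each) in C3H and 4.61 ± 1.00 against 4.24 ± 1.00 in C57Bl/6 mice. The log2 fold changes of females against males were 0.50 and 0.48 (adjusted p = 0.0378 and 0.0498, edgeR), beside 14.5% and 14.7% of all miRNA called. The irradiation effect on miR-192-5p in C57Bl/6 mice differed between the sexes over D2, D5 and M1 (edgeR's F test, adjusted p = 0.0275, 5.38% of all miRNA called), while the other three were not called. This call rested on 1 library: without the sham M1 sample at 15.20, which is from a male, the adjusted p was 0.146 (edgeR). Within females the effect was 1.34 at D2, 1.14 at D5 and 0.44 at M1, and within males 0.49, 0.44 and -0.15, the last being 0.30 without that sample. For miR-802-5p at D2 the values were 2.79 in females and 0.82 in males, with a difference of 1.963 (95% interval 0.57 to 3.35) that did not pass at that time (adjusted p = 0.14, edgeR). In C3H mice 0 of 4 differed between the sexes (0.414% of all miRNA called), so the following are effects within 1 sex, not shown to differ from the other. Females had -1.04 for miR-215-5p at D5 (adjusted p = 0.0102) and, at D2, -1.11 for miR-194-5p (adjusted p = 0.0369) and 0.80 for miR-192-5p (adjusted p = 0.0484, edgeR). Males had -0.07, -0.23 and 0.61 there, with 0 calls. The share of all miRNA called within females or within males is not given here, so these calls have no background beside them.

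The opposite arms of the same hairpins were scarcer. miR-215-3p had a median of 68 reads and miR-192-3p of 13, miR-194-1-3p and miR-194-2-3p had no read in 669 and 622 of 899 samples, and miR-802-3p, with none in 815, did not pass the filter. miR-215-3p was called once, at D5 in C57Bl/6 mice, with a log2 fold change of 1.01 ± 0.22 (SE, adjusted p = 0.000193, edgeR), where miR-215-5p had 0.42. miR-192-3p followed miR-192-5p in size at M5 in C57Bl/6 mice, at 1.11 ± 0.37, but missed the threshold (SE, adjusted p = 0.0533, edgeR).

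Across all 899 samples, after the mean of each strain, treatment and time was removed, miR-192-5p and miR-215-5p had the highest Pearson correlation among the 4 (0.66), ahead of miR-192-5p with miR-802-5p (0.52) and miR-215-5p with miR-802-5p (0.51). miR-194-5p was the least tied, with 0.40 to miR-215-5p, 0.36 to miR-802-5p and 0.29 to miR-192-5p, the lowest of the 6. These correlations are a description: the points share mice and library composition, and the scarce miRNA carry more counting noise.

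Among the 475 miRNA tested besides the 4 and their opposite arms, the closest to miR-192-5p was miR-122-5p (0.60), the main miRNA of hepatocytes, followed by miR-23a-3p (0.45) and miR-150-5p (0.45), a lymphocyte miRNA. miR-215-5p was closest to miR-150-5p (0.52), miR-23a-3p (0.47) and miR-375-3p (0.46), a miRNA of gut and endocrine cells. miR-802-5p was closest to miR-19b-3p (0.43), miR-23a-3p (0.40) and miR-122-5p (0.35). miR-194-5p had other neighbors, miR-142a-5p (0.41) of blood cells, miR-15b-5p (0.39) and miR-322-5p (0.39).

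Lists of other tissue miRNA give the setting. In the liver list of 7, miR-122-5p carried most calls. At D2 and D5 in C57Bl/6 mice it was lower after irradiation, by -1.69 ± 0.31 and -1.74 ± 0.31 on the log2 scale (SE, adjusted p = 5.52e-06 and 1.36e-06, edgeR), when miR-192-5p was higher at both times and miR-802-5p at D2. In C3H mice at D2 the pair was split in the same way, with -1.06 for miR-122-5p (adjusted p = 0.0212) and 0.72 for miR-192-5p by edgeR.

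At M2, M4 and M5, miR-122-5p and miR-192-5p of C57Bl/6 mice were both called higher after irradiation, while at M3 only miR-122-5p was and at M6 neither. miR-122-5p had 1.36 at M2, 1.47 at M3, 2.97 at M4 and 3.23 ± 0.39 at M5 (SE, adjusted p = 3.64e-13, edgeR), each past the threshold, and 2.81 at M5 without the irradiated sample highest in miR-192-5p. In C3H mice it was higher at M1 (1.33, adjusted p = 6.55e-06, edgeR). The other members of the liver list that were called were miR-122-3p (-2.69 at D5 and 3.26 at M5) and miR-22-3p (0.50 at D5 and 0.46 at M4), all in C57Bl/6 mice.

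**Figure D5:**
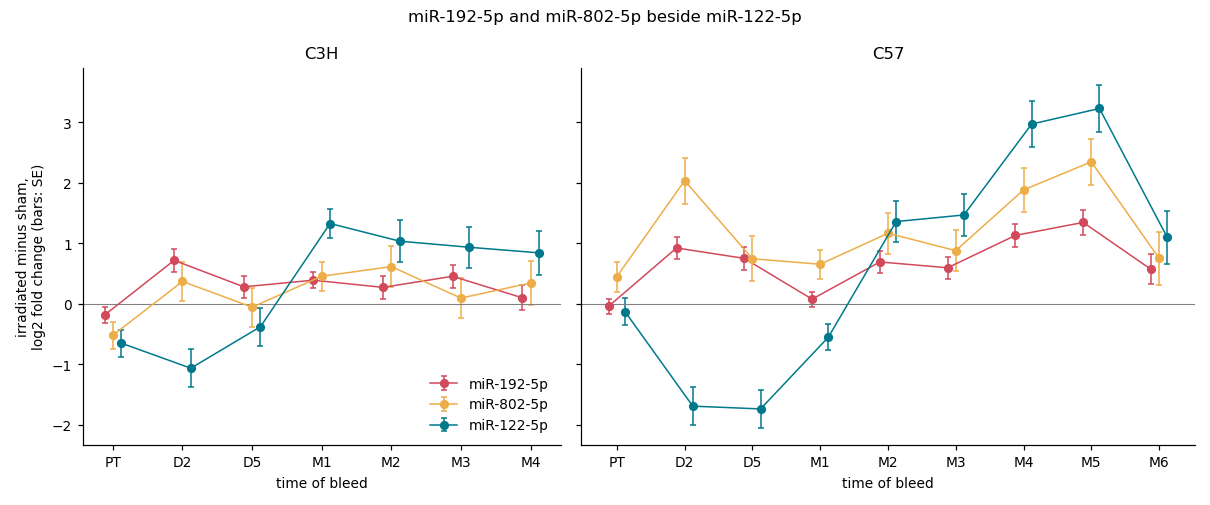
Log2 fold change of irradiated against sham mice (y axis, bars are SE) by time of bleed (x axis) for miR-192-5p, miR-802-5p and miR-122-5p in C3H and C57Bl/6 mice. In C57Bl/6 mice miR-122-5p is low at D2 and D5 (-1.69 and -1.74) while miR-192-5p is high (0.92 and 0.75), and all 3 are high at M4 and M5.

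In the gut epithelium list of 7, 3 members were higher and 1 lower at D5 in C57Bl/6 mice, 1 was higher at D2 in C57Bl/6 mice, and 1 was higher and 1 lower (miR-31-5p, -0.62) at D2 in C3H mice. miR-375-3p was the member called most often, with 2.37 ± 0.19 at D2 and 1.22 ± 0.18 at D5 in C57Bl/6 mice and 1.16 ± 0.18 at D2 in C3H mice (SE, adjusted p = 7.38e-30, 2.34e-09 and 1.87e-08, edgeR). No member of this list was called from M1 on. In the kidney list of 7, 1 was higher and 3 lower at D5, 1 higher and 1 lower at M4 and 1 higher at M5 in C57Bl/6 mice, where miR-30a-5p was the higher member each time (0.53, 0.38 and 0.55), and 0 were called in C3H mice.

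In the pancreas acinar list of 4, 2 or 3 were higher at each time from M1 to M6 in C57Bl/6 mice, such as miR-216a-5p at 3.06 ± 0.40 at M2 (SE, adjusted p = 1.43e-11, edgeR), and 0 were called in C3H mice. In the list of 7 miRNA that respond to p53, 1 to 4 were higher at each time after irradiation in C3H mice, with 1 lower at D2 (miR-107-3p, -1.70), and 1 or 2 were higher in C57Bl/6 mice at D2, D5 and M2 to M5. miR-34a-5p had 1.80 in C3H and 1.70 in C57Bl/6 mice at D5, when miR-192-5p had 0.28 and 0.75.

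In the leukocyte list of 5, 4 members were lower at D2 and 3 at D5 in C3H mice and 2 and 4 in C57Bl/6 mice. These include miR-150-5p (-1.70 in C3H and -1.55 in C57Bl/6 mice at D2), one of the miRNA that followed miR-192-5p and miR-215-5p closely within groups. It was still lower at M1 in C3H mice (-0.62) and was higher at M2 in C57Bl/6 mice (0.54). No member of the muscle list was called at any time, and of the 4 platelet and endothelial miRNA 1 was higher and 1 lower at D5 and 1 higher at M2 in C57Bl/6 mice. Whether liver, gut or kidney was the source of any change in the 4 miRNA was not tested.

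Irradiated cohort 1 mice were split by whether they had a sample at a late time, M4 for C3H and M5 for C57Bl/6 mice, and their earlier levels compared. Of the 32 comparisons 0 passed the adjusted threshold by permutation tests, and 3 had an unadjusted p under 0.05 (lowest adjusted p = 0.41). These were miR-192-5p in C3H mice at M1, which was 0.35 lower in mice sampled later where the test gave -0.35, and miR-194-5p (-1.78) and miR-802-5p (-2.004) in C57Bl/6 mice at D2. The groups were small, with 17 mice sampled later against 13 in the first and 9 against 7 at D2. The SDs of miR-802-5p at D2 were 2.00 and 1.24, so the lack of calls does not show that levels were alike. A missing late sample can be a death or a sample that was not sequenced, which the labels do not tell apart.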

How the data were processed

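Plasma miRNA libraries were made by the authors with a QIAseq kit. Libraries with large adapter-dimer peaks and plasma with hemolysis above a set limit were left out before deposit, so milder hemolysis can remain. Reads were trimmed with FASTQ Toolkit and assigned with the BaseSpace Small RNA application (mouse build mm10). The deposited values are raw counts, reads assigned to each mature miRNA. The miRBase release, the treatment of reads that match both miR-192-5p and miR-215-5p, and the use of molecular identifiers are not given in the sources used here, so limits from counts cover counting error only.

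Strain, treatment, time, sex, cohort and mouse were taken from the sample labels. No 2 samples were identical (0 pairs). Counts were normalized by TMM in edgeR 4.0.16 (R 4.3.3), and 483 miRNA passed filterByExpr. A quasi-likelihood model with 32 group means was fitted to all 899 samples, with Benjamini-Hochberg adjustment within each contrast over all miRNA tested and a threshold of 0.05. Sex was tested in a model with sex in its groups. The mouse was a term in neither model, so repeated samples of a mouse were treated as independent. Changes from a mouse's own first sample, ratios and later sampling were tested with 100000 permutations (scipy 1.17.1), exactly where a group had fewer than 10. Own changes and ratios were run on all 483 and 482 miRNA and adjusted over them. The edgeR step was tested on simulated data in which 200 miRNA had been changed.

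The miRNA named are the 4, their opposite arms, the 3 most correlated miRNA of each, and list members where a list is described. The members and lists were chosen with earlier results of these data known. Alternatives were limma-voom (limma 3.58.1), DESeq2 1.42.0, other normalizations, filters, covariates and subsets, and the mouse as a replicate block. As a fixed block the mouse takes up the level at PT, so those effects are differences in change from PT, not in level. The labels give the mouse, so samples of 1 mouse are paired: deviations at PT and M1 correlated at 0.17, 0.18, 0.27 and 0.16 over 186 mice for miR-192-5p, miR-194-5p, miR-215-5p and miR-802-5p, and at 0.15, 0.12, 0.15 and 0.017 within cohort and sex. Sequences and loci come from RefSeq and the annotation of GRCm38.p6.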

Additional observations from a re-analysis of the deposited data

Results flagged for a closer look

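In irradiated C57Bl/6 mice at M6, the only group of a size that was screened for outlying samples (8 mice, 4 miRNA), 1 sample was far below the others for miR-802-5p at 1.97 log2 CPM. Its gap to the next sample was 0.534 of the whole range. For 1 miRNA, such a screen picks out about 1 group in 20 by chance (5%), and 4 miRNA were screened here.

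The irradiation effect differed between the strains over the 6 shared times for miR-802-5p (adjusted p = 0.00397), miR-215-5p (adjusted p = 0.0109) and miR-192-5p (adjusted p = 0.0149) by edgeR's F test, with larger estimates in C57Bl/6 mice at D2, D5, M2, M3 and M4 for each of the 3. With the mouse as a correlated replicate block only miR-215-5p passed (adjusted p = 0.0408, against 0.0599 for miR-802-5p and 0.0531 for miR-192-5p, limma-voom), and with a fixed block 0 of 4 did. In C57Bl/6 mice the effect on miR-192-5p differed between females and males over D2, D5 and M1 (adjusted p = 0.0275, edgeR), with larger estimates in females at each of these times, but not without the male sham M1 sample highest in miR-192-5p (adjusted p = 0.146, edgeR).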

How the results depend on the processing

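In C57Bl/6 mice 10 of 32 tests passed, and the alternatives that cover all 32 gave 8 to 13 except males alone, with 3. In C3H mice 1 of 24 passed. The count was 2 with DESeq2, with its size factors in edgeR, without the filter on low counts, with limma-voom and with the mouse as a replicate block by correlation, 5 when only the 2 groups compared were fitted, 5 when cohort and sex were a block (chosen after the data were seen), 3 in females and 0 in males. Of the 11 calls, miR-192-5p at M4 and M5 and miR-802-5p at M5 held in 18 of 18 alternatives, and miR-194-5p at M5 in 8 of 18. None changed sign. The strain difference called 3 of 4 and fell to 0 with quantile-normalized log2 RPM and limma, 1 and 0 with the mouse as a replicate block by correlation and as a fixed term, 0 in cohort 1 and 0 in males. With the mouse as a fixed replicate block, where effects are counted from PT, miR-802-5p at M2 and miR-194-5p at M5 were lost. Before treatment, 2 of 4 differed between strains, and 1 in females and 1 in males alone (chosen later). In C3H sham mice 0 of 4 changed with time, but 2 with sex and cohort as covariates and 2 in cohort 1 alone. For sex before treatment, 1 of 4 was called in each strain. It was 0 with limma-voom in C3H, and 2 with DESeq2 and 0 with library totals in C57Bl/6 mice. The sex difference of the effect in C57Bl/6 mice (1 of 4) was 0 with DESeq2, with limma-voom and, chosen later, without the sham M1 sample at 15.20. Fits of cohort 2 alone reach M1 only and called 3 of 12 tests in C57Bl/6 and 0 in C3H mice. The share of all miRNA called in fits of a single cohort or sex is not given here, so their counts have no background beside them. Of the own changes from PT, 23 passed when adjusted over the members and 9 when adjusted over all miRNA (chosen later). The cause of these shifts was not tested. The scarce miR-802-5p (median 20 reads) had an SE of 0.38 at M5 in C57Bl/6 mice, where the abundant miR-192-5p had 0.20.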
